A study of Mus musculus with 4 samples.

Results

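The genes described here encode the contents of mast cell granules: the proteases Cpa3, Cma1, Mcpt4, Tpsb2, Tpsab1, Mcpt8 and Ctsg, the proteoglycan core protein serglycin (Srgn), the histamine-forming enzyme Hdc and the amine transporter Slc18a2. They were chosen by symbol for these roles, with earlier results of these data known, and are 10 of the 18113 genes in the authors' array table. The shares of all genes given below therefore describe the set and do not test it. The table writes symbols in capitals: 9 were found as CPA3, CMA1, MCPT4, TPSAB1, MCPT8, CTSG, SRGN, HDC and SLC18A2, and Tpsb2 was found under its older name MCPT6, which the authors' table describes as a tryptase. Mast cells are tissue leukocytes that store these products in secretory granules and release them when their IgE receptor or other receptors are engaged. Inside the granule, positively charged proteases and amines are held by the negatively charged sugar chains of serglycin. Histamine is made from histidine by the enzyme that Hdc encodes and is pumped into vesicles by the product of Slc18a2. Stem cell factor, the ligand of the receptor KIT, is the main growth factor of mast cells and was present in all 4 cultures.

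RNA came from mouse fetal liver progenitors of C57BL/6J embryos at day 13.5, selected with magnetic beads as cells positive for c-Kit and negative for the erythroid marker Ter119. The 4 groups were wild-type cells with a control virus, wild-type cells with ETV6-RUNX1, Btg1-/- cells with the control virus and Btg1-/- cells with ETV6-RUNX1, each measured on 1 Illumina array. ETV6-RUNX1 is a leukemia fusion that keeps the DNA-binding domain of RUNX1, and Btg1 encodes an antiproliferative co-regulator. All cells had 24 hours of expansion, retroviral infection and a further 48 hours before a culture of 12 days in FLT3 ligand (10 ng/ml), interleukin 7 (20 ng/ml) and stem cell factor (100 ng/ml). Not stated are the number of embryos behind a culture, which promoter drives the fusion and what share of cells carried the virus. With 1 array per group no difference below has a replicate check, and no test across groups is given.

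Values are the authors' RMA levels on a log2 scale. Values under a floor of 6 are read only as low, because most genes of the table lie there, and each array had 5869 to 5900 genes that reached it. The highest level of any gene was 14.91 or 14.92 on each array. Btg1 itself was lower in the knockout, with levels of 11.87 and 11.97 in wild type and 9.02 and 9.97 in Btg1-/- cells without and with ETV6-RUNX1. The array of Btg1-/- cells with ETV6-RUNX1 stood apart from the other arrays. Over 1371 genes at a level of at least 10 on all arrays, the robust standard deviation of log2 differences was 0.226 to 0.274 in pairs with that array and 0.115 to 0.134 in the other pairs. Beside a difference, "spread" is the robust standard deviation of the differences among the gene and the 250 genes above and the 250 genes below it in level on that pair of arrays. It describes those genes and leaves out variation between independent cultures.

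Of the 10 genes, 7 reached the floor on all 4 arrays, Ctsg and Slc18a2 reached it on 3 arrays, not in the wild-type control, and Mcpt8 reached it on none. Cpa3 encodes carboxypeptidase A3, the zinc metalloprotease that trims C-terminal residues and is the broadest protease marker of mast cells. The wild-type control read 13.63, wild type with ETV6-RUNX1 14.67, the Btg1-/- control 14.12 and Btg1-/- with ETV6-RUNX1 14.61. Both ETV6-RUNX1 cultures were higher than both controls, and the wild-type control was the lowest.

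Cma1 encodes mouse mast cell protease 5, a granule protease of the chymase family that in mice is stored together with carboxypeptidase A3. In the same order of cultures its levels were 12.67, 14.18, 13.28 and 14.23. Mcpt4, the chymase of connective tissue mast cells that splits proteins after aromatic residues, stood at 13.01, 14.17, 13.44 and 14.02. For both chymases the ETV6-RUNX1 arrays lay close together and above both controls. Tpsb2 encodes the tryptase mouse mast cell protease 6, which cuts after basic residues and works as a tetramer bound to heparin. Its levels were 11.91, 13.27, 12.42 and 13.33, again with the 2 fusion arrays highest.

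Tpsab1 encodes a second tryptase, mouse mast cell protease 7. RefSeq's GRCm38.p6 table, which is built on C57BL/6J, classes it as a transcribed pseudogene. A transcript was nevertheless read at 7.27, 9.10, 8.37 and 8.96. The wild-type control again had the lowest value. Tpsab1 and Tpsb2 are close paralogs, and partial binding of the transcript of either gene to the probe of the other was not tested. Ctsg encodes cathepsin G, a serine protease shared by mast cells and neutrophil precursors, and stood near the floor at 5.46, 6.86, 6.23 and 7.35. Mcpt8, a protease of mouse basophils, was below the floor on all 4 arrays, with values between 2.93 and 3.91 that have no order.

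Among the storage and amine genes, Srgn stood at 10.17, 11.12, 10.17 and 11.38. It was the 1 measured gene of the set whose controls had the same level in both genotypes. Hdc stood at 9.72, 11.12, 10.37 and 11.07. Slc18a2 was under the floor at 5.54 in the wild-type control and just above it at 6.04 in the Btg1-/- control. With ETV6-RUNX1 it reached 8.28 in wild type and 7.92 in Btg1-/- cells, so that both fusion cultures were far above both controls.

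**Figure D1:**
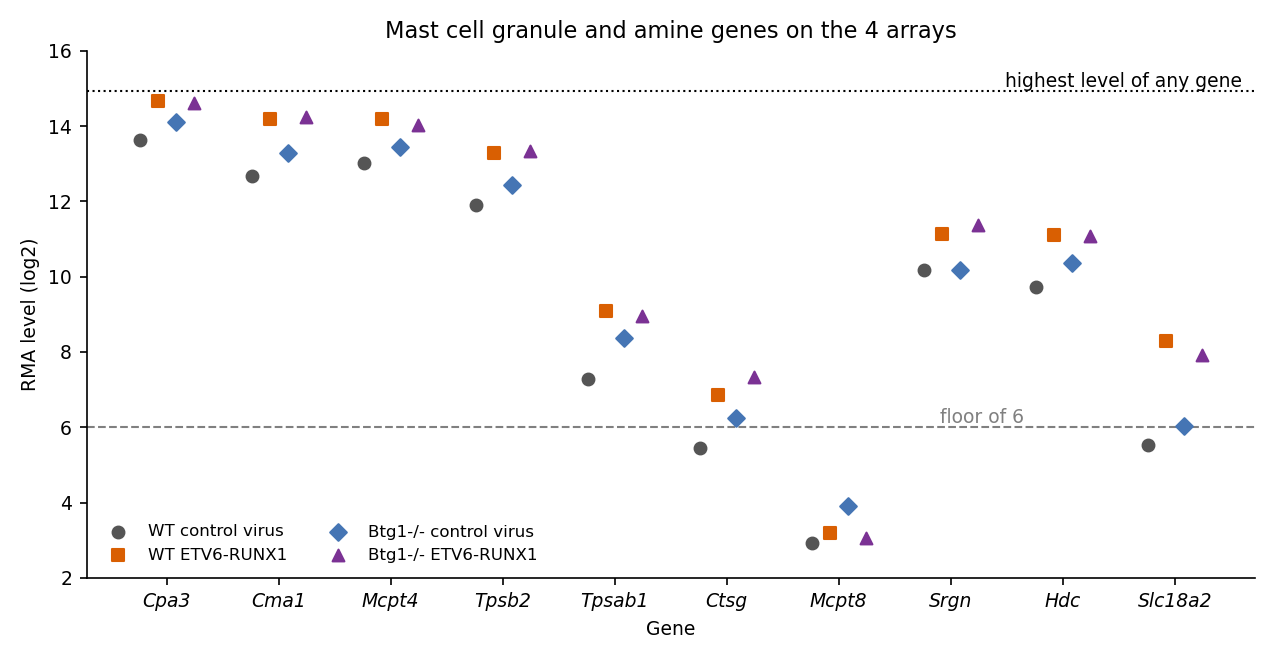
RMA level (log2, vertical axis) of the 10 genes on the 4 arrays, 1 point per array, with the floor of 6 dashed and the highest level of any gene dotted. In each gene but Mcpt8, which is under the floor on all arrays, both ETV6-RUNX1 points lie above both control points, and Cpa3 with ETV6-RUNX1 lies 0.246 and 0.297 below the array maximum.

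Some of these values lie close to the highest RMA level of their array. A scanner cannot register increases past its limit, so a difference near that limit may be understated. The highest RMA level need not be that limit, and the raw signals were not used. A level was called near the ceiling if it was within 1 log2 unit of the highest level on its array. This held for 7 of the 40 values, all of Cpa3, Cma1 and Mcpt4. Cpa3 was 0.246 below the maximum in wild-type cells with ETV6-RUNX1, 0.297 below it in Btg1-/- with ETV6-RUNX1, 0.802 below it in the Btg1-/- control and 1.28 below it in the wild-type control. The ETV6-RUNX1 values of Cma1 were 0.741 and 0.680 below the maximum, and those of Mcpt4 were 0.745 and 0.886 below it. The 3 genes were therefore nearer to the ceiling with the fusion than without it, and whether saturation shortened their differences was not tested.

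The first contrast set the fusion against the control virus with Btg1 intact. All 9 measured granule genes were higher with the fusion, against 45.4% of the 6123 genes compared that lay above 0. Ctsg and Slc18a2 reached the floor only with the fusion in this pair, so their sign was fixed by the rule of entry. The other genes, whose sign was free, were all higher too. Of the 9, 7 were at least 2-fold higher, against 1.88% of all genes compared. Their median log2 difference was 1.37, and that of all genes was -0.02. They included proteases and both amine genes. Slc18a2 was at least 4.86-fold higher, a lower bound because the control was under the floor, Tpsab1 was 3.55-fold higher (log2 difference 1.83, spread 0.27) and Cma1 was 2.84-fold higher (1.51, spread 0.11). Hdc was 2.64-fold higher (1.40, spread 0.14), Tpsb2 2.58-fold (1.37, spread 0.11), Mcpt4 2.24-fold (1.16, spread 0.11) and Cpa3 2.07-fold (1.05, spread 0.11). The 2 genes under 2-fold were Srgn, with a log2 difference of 0.94 (spread 0.15), and Ctsg, at least 1.81-fold higher with a spread of 0.47 on the log2 scale.

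In Btg1-/- cells, the same contrast asks whether the fusion goes with the same difference when Btg1 is lost. All 9 measured genes were again higher, where 51.3% of 6159 genes lay above 0, but only 3 were at least 2-fold higher, where 1.69% of all genes were. Their median log2 difference was 0.91, beside 0.01 for all genes. The 3 were Slc18a2 at 3.66-fold (1.87, spread 0.47), Srgn at 2.31-fold (1.21, spread 0.36) and Ctsg at 2.16-fold (1.11, spread 0.53). The proteases Cma1 and Tpsb2 had log2 differences of 0.95 (spread 0.22) and 0.91 (spread 0.23). Hdc stood at 0.71 (spread 0.36), Tpsab1 at 0.59 (spread 0.35), Mcpt4 at 0.58 (spread 0.22) and Cpa3 at 0.50 (spread 0.20). Hdc, Tpsab1 and Ctsg lay at 1.99, 1.68 and 2.12 times their spread, the lowest ratios of the 9 genes in this comparison.

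The wild-type and Btg1-/- contrasts of ETV6-RUNX1 share no array. All 9 genes were above 0 in both, where 27.1% of the 5961 genes compared in both were. For Ctsg and Slc18a2 only the sign in Btg1-/- cells was free. Slc18a2 was the only member at least 2-fold higher in both, where 0.503% of genes were. That call depends on the floor, since the Btg1-/- control stood at 6.04: with a floor of 7 the difference in Btg1-/- cells was a lower bound of 0.92, under 2-fold. The 2-fold call of Ctsg in Btg1-/- cells was lost in the same way, at 0.35. On all 4 arrays together, both ETV6-RUNX1 values exceeded both control values in all 9 measured members, an order shown by 20.3% of the 6321 genes at or above the floor on at least 1 array.

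**Figure D2:**
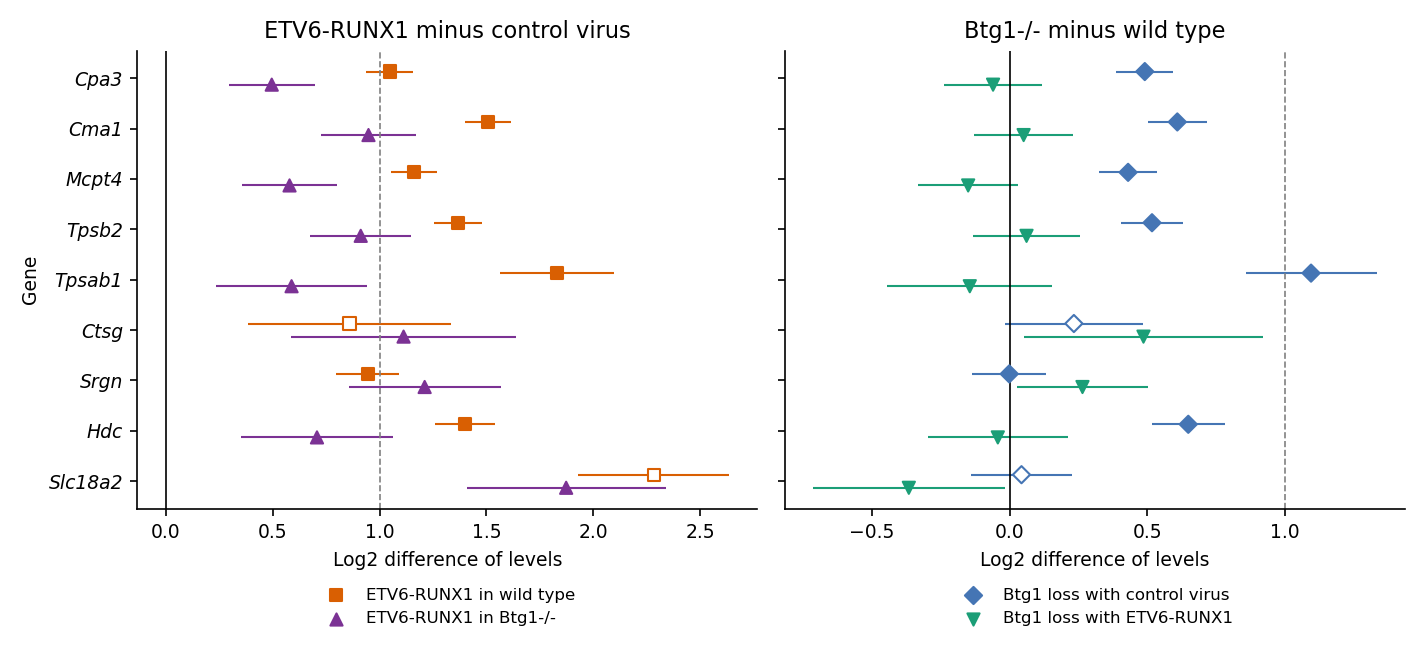
Log2 difference of levels (horizontal axis) for the 9 measured genes, with ETV6-RUNX1 minus control virus on the left and Btg1-/- minus wild type on the right. Bars are plus and minus 1 level-matched spread between the same 2 arrays, open symbols are lower bounds with 1 array under the floor, and dashed lines mark 2-fold. All differences on the left are above 0, and on the right those with ETV6-RUNX1 lie between -0.37 and 0.49.

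Loss of Btg1 under the control virus went with smaller differences. Of the 9 measured genes, 8 were above 0, where 49.6% of all 6097 genes compared were, and their median was 0.49 beside -0.001 for all genes. The signs of Ctsg and Slc18a2 were fixed, because only the Btg1-/- control of this pair reached the floor. The 1 gene at least 2-fold higher was Tpsab1 (2.14-fold, log2 difference 1.10, spread 0.24), where 0.361% of all genes were. Hdc differed by 0.65 (spread 0.13), Cma1 by 0.61 (spread 0.11), Tpsb2 by 0.52 (spread 0.11), Cpa3 by 0.49 (spread 0.10) and Mcpt4 by 0.43 (spread 0.11). Srgn did not follow, at -0.001 with a spread of 0.13, and the bounds of Ctsg (0.23) and Slc18a2 (0.04) lay within their spreads of 0.25 and 0.19. Hdc and the proteases other than Ctsg thus differed between the controls by more than 4 times their spread.

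Between the 2 cultures that carried the fusion, loss of Btg1 showed no such pattern. Of the 9 genes, 4 were above 0, where 50.4% of 6106 genes were, the median was -0.04 beside 0.004 for all genes, and 0 were at least 2-fold higher, where 0.671% of all genes were. With 1 array per group there is no p-value to set beside that count. Differences ran from -0.37 for Slc18a2 (spread 0.35) to 0.49 for Ctsg (spread 0.43). Those of Cpa3, Cma1, Mcpt4, Tpsb2, Tpsab1 and Hdc were all smaller than their spreads.

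When cells with both lesions were set against wild-type controls, all 9 genes were above 0, where 49% of 6173 genes were. Of these, 8 were at least 2-fold higher, where 2.61% of all genes were, and the median was 1.36 beside -0.007. Cpa3, at a log2 difference of 0.99, was just short of 2-fold. The signs of Ctsg and Slc18a2 were again fixed, because the wild-type control was under the floor. The values of Cma1 (1.56), Tpsb2 (1.43) and Hdc (1.36) were close to those of ETV6-RUNX1 alone in wild type, a contrast measured against the same wild-type control array.

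In the 2 by 2 design, the effect of ETV6-RUNX1 in Btg1-/- cells minus its effect in wild type could be formed for the 7 members that reached the floor on all arrays. It was below 0 in 6 of them, where 49.7% of the 5442 such genes were, and its median was -0.56 beside 0.003 for all genes. Tpsab1 had the most negative value (-1.24), followed by Hdc (-0.69), Mcpt4 (-0.58), Cma1 (-0.56), Cpa3 (-0.55) and Tpsb2 (-0.46), and Srgn was at 0.27. Without the 3 genes near the ceiling the median was -0.57. The wild-type control was the lowest of the 4 arrays in 8 of 9 measured members, where 18.5% of genes had that order. In the same 8 genes the Btg1-/- control lay above it and below both fusion arrays, as it did in 10.1% of all genes. For Ctsg and Slc18a2 the lowest place of the wild-type control was fixed in both orders, because only that array was under the floor. All contrasts that use the wild-type control share this low array, and a low content of mast cells in that 1 culture cannot be told apart from an effect of genotype or virus. In these bulk samples, fewer mast cells and less RNA per cell cannot be told apart either.

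Within the protease cluster of chromosome 14, neighbouring genes were read very differently. In RefSeq order (GRCm38.p6, used here for gene order only) the protein-coding genes after Cma1 are Cma2, Mcpt1, Mcpt2, Mcpt9, Mcpt4, Mcpt8 and Ctsg, and then granzyme genes down to Gzmb. Cma1 and Mcpt4 were among the members near the ceiling, whereas Mcpt1 and Mcpt2, chymases of mucosal mast cells, and Mcpt9 lay between 2.46 and 3.65 and thus under the floor on all arrays. Cma2 was under the floor as well, with values of 3.03 in the wild-type control, 5.44 in wild-type cells with ETV6-RUNX1, 3.93 in the Btg1-/- control and 3.96 in Btg1-/- with ETV6-RUNX1. The transcribed pseudogene Gm5801, which lies among them, read between 9.49 and 9.65 with little difference between cultures. The granzyme genes Gzmb, Gzmc, Gzmd, Gzme, Gzmf, Gzmg and Gzmn, which encode proteases of cytotoxic lymphocyte granules, were all under the floor on all 4 arrays. A value under the floor can also reflect a weak probe, so it does not show that a transcript was absent.

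**Figure D3:**
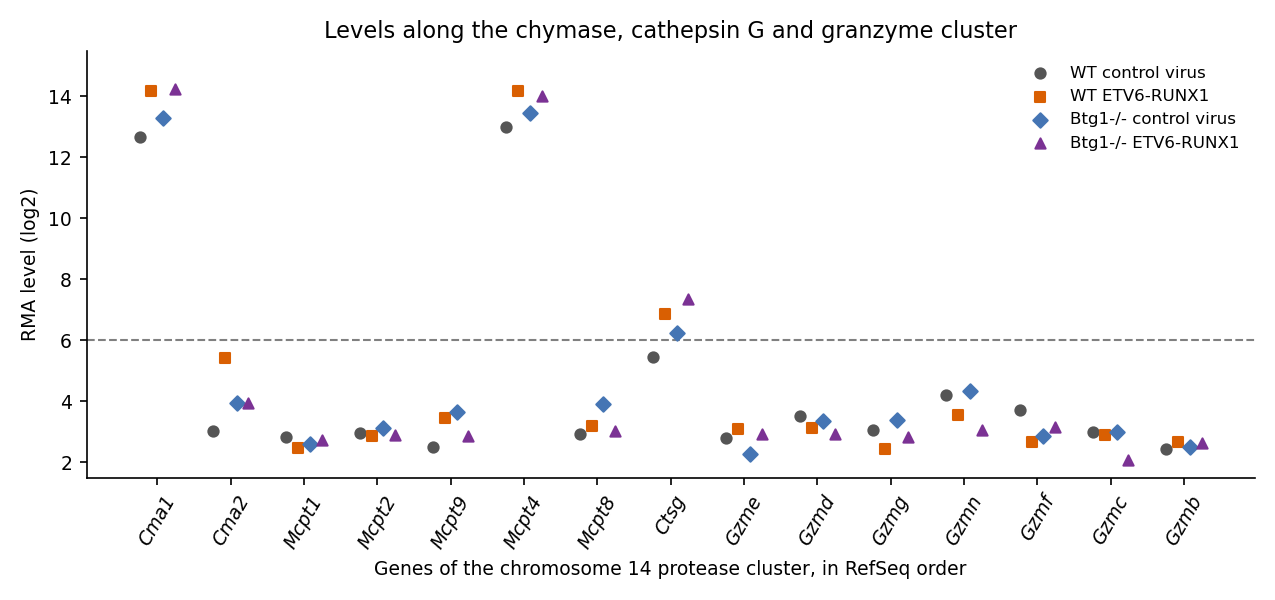
RMA level (log2, vertical axis) on the 4 arrays for the protein-coding genes of the chromosome 14 protease cluster that the array table holds, in RefSeq order along the horizontal axis without distances. Cma1 and Mcpt4 lie between 12.67 and 14.23, Ctsg crosses the dashed floor of 6, and the other genes lie under it.

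The sequences just upstream of these genes are shown because the members moved together and because the fusion carries the DNA-binding domain of RUNX1. Each is the run of 250 bases before the RefSeq start on the gene's strand (GRCm38.p6), 5′ to 3′. RefSeq windows were matched for 8 of the 10 members. Capitals mark matches to a RUNX motif (TGTGGT on either strand), to a GATA motif (AGATAA or TGATAA, and likewise AGATAG or TGATAG, on either strand) and to a TATA box (TATAAA on the gene's strand). Cpa3, Mcpt4, Cma1 and Slc18a2 are printed as examples of genes that were higher with ETV6-RUNX1, and Mcpt8 as the member under the floor. The examples do not represent all higher genes. Ctsg and Srgn were also higher with the fusion, but their windows held no GATA match and are not printed. That of Hdc is not printed either.
Cpa3 (chr3:20242182-20242431, minus strand): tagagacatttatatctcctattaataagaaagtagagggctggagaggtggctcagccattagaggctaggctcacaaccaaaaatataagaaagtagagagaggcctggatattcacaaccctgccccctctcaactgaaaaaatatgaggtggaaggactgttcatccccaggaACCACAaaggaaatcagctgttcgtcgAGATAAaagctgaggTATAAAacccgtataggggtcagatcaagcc
Mcpt4 (chr14:56062311-56062560, minus strand): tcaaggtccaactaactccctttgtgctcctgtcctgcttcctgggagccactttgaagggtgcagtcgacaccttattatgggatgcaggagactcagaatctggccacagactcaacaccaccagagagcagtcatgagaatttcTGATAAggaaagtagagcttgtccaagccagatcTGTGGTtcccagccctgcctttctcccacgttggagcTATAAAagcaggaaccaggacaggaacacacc
Cma1 (chr14:55944676-55944925, minus strand): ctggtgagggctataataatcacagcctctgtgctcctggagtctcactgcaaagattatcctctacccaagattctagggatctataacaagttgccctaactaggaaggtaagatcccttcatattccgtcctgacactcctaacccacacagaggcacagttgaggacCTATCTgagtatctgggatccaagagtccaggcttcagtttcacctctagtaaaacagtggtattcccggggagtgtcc
Slc18a2 (chr19:59260628-59260877, plus strand): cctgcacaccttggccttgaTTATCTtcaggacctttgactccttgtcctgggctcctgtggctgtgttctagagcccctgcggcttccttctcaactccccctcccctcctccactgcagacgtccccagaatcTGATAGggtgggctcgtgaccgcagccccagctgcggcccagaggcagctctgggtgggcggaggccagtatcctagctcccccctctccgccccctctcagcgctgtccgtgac
Mcpt8 (chr14:56085198-56085447, minus strand): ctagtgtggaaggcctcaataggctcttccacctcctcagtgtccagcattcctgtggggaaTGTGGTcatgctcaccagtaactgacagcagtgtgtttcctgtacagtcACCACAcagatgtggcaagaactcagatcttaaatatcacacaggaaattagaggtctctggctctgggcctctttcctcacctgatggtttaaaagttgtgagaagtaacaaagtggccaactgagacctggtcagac
In Cpa3 the RUNX match began at base -73, the GATA match at -46 and the TATA match at -31, counted back from -1 just before the start. In Mcpt4 they began at -69, -103 and -32. Cma1 held a GATA match at -79 and no RUNX match in this window, and Slc18a2 held GATA matches at -230 and -115. The window of Mcpt8 held RUNX matches at -188 and -139 and no GATA match. Over the members, a GATA match was present in 5 of 8 (Cpa3, Mcpt4, Cma1, Slc18a2 and Hdc), and a RUNX match in 5 of 8 (Cpa3, Mcpt4, Mcpt8, Ctsg and 1 of the 2 starts of Srgn). Among the 26994 genes of the RefSeq table, 29.8% held a GATA match and 15.9% a RUNX match in at least 1 such window. A TATA match was present in 3 members (Cpa3, Mcpt4 and Srgn) and in 8.94% of all genes, and an E-box of the letters CACATG or CACGTG in 1 member (Ctsg, overlapping its RUNX match) and in 19.8% of all genes. These matches are letters in a window and were not tested for binding.

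Other genes of the granule pathway differed less evenly than the members. Among 20 other granule proteases and their processing partners on the array, 9 were compared with ETV6-RUNX1 in wild type, with a median of 0.19. Of these, 7 lay above 0, where 45.4% of all genes did. At least 2-fold higher were 2, where 1.88% of all genes were. Both were serpins, inhibitors of serine proteases: Serpinb6a (1.25, spread 0.20) and Serpinb1a (1.19, spread 0.16). In Btg1-/- cells 8 of 9 were above 0, where 51.3% of all genes were, with a median of 0.35. Of these, 0 were at least 2-fold higher, where 1.69% of all genes were, and the 2 serpins stood at 0.73 and 0.82. The lysosomal proteases and inhibitors with the highest levels differed little in wild type, with Ctsb at 0.44 and the cystatin gene Cst3 at 0.01.

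Genes that build the sugar chains of proteoglycans had medians of 0.14 in wild type and 0.13 in Btg1-/- cells, out of 23 on the array. Above 0 were 7 of 12 and 8 of 14, where 45.4% and 51.3% of all genes were. Papss2, which makes the sulfate donor for these chains, was the 1 gene past 2-fold. It was at least 2.05-fold higher in wild type, where 1.88% of all genes were at least 2-fold higher. Its level was under the floor in both controls, at 5.36 and 5.69, and reached 7.04 in wild type and 6.13 in Btg1-/- cells with the fusion. The sulfate donor transporter gene Slc35b2 differed by -0.04 and -0.02, Papss1 by 0.12 in both and the heparan sulfate polymerase gene Ext2 by 0.48 and -0.04.

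Of the other amine genes, 5 of 12 on the array were compared. Tph1, the rate-limiting enzyme of serotonin synthesis outside the brain, stood at 7.93 in the wild-type control, 9.51 in wild-type cells with ETV6-RUNX1, 8.70 in the Btg1-/- control and 9.23 in Btg1-/- with ETV6-RUNX1. The array order was that of Hdc, and Tph1 differed by 1.58 in wild type (spread 0.21) and by 0.53 in Btg1-/- cells (spread 0.35). Ddc, the decarboxylase that completes serotonin synthesis, differed by -0.03 and 0.33. Odc1, which forms the polyamine precursor putrescine, went the other way in Btg1-/- cells, with -0.08 in wild type and -1.02 (spread 0.30) in Btg1-/-, where 2.37% of all genes were at least 2-fold lower. The list's medians were 0.40 (3 of 5 above 0) and 0.33 (3 of 5 above 0), where 45.4% and 51.3% of all genes were above 0.

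Granule and lysosome hydrolases had medians of 0.26 in wild type and 0.34 in Btg1-/- cells. Above 0 were 9 of 11 and 8 of 10, where 45.4% and 51.3% of all genes were. At least 2-fold higher were 2 and 1, where 1.88% and 1.69% of all genes were. Cd63, a tetraspanin of granule membranes that appears on the cell surface upon degranulation, stood at 9.02, 11.06, 10.01 and 10.87 in the order of cultures used above, a difference of 2.04 in wild type and 0.86 in Btg1-/- cells. Hexa, a subunit of the hexosaminidase whose release is used to measure degranulation, differed by 1.51 (spread 0.26) and 1.10 (spread 0.37). The lysosome membrane genes Lamp1 and Lamp2 differed by 0.03 and 0.17 in wild type. In the secretion machinery 10 of 11 and 8 of 11 genes were above 0, beside 45.4% and 51.3% of all genes. This list had medians of 0.29 and 0.26, out of 21 genes on the array. Its 1 member past 2-fold in both genotypes was Unc13b, a vesicle priming gene, at least 2.27-fold higher in wild type and 2.07-fold higher in Btg1-/- cells. Of all genes compared in both, 0.503% were at least 2-fold higher in both. Unc13b stood near the floor at 5.84, 7.18, 6.39 and 7.44, so both calls depend on the floor chosen. Stxbp2, which guides membrane fusion during degranulation, differed by 0.29 and 0.33, Rab27a, which tethers granules, by 0.15 and -0.35, and Vamp3 by 0.09 and 0.05.

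**Figure D4:**
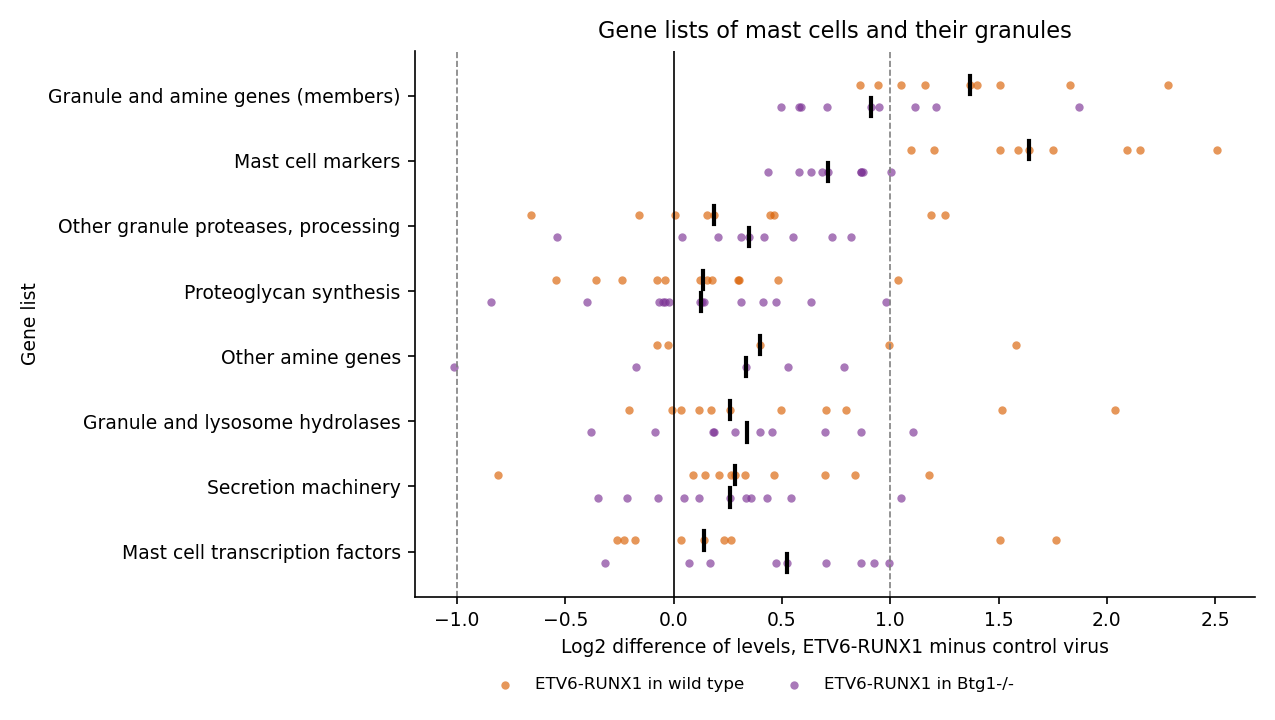
Log2 difference of levels, ETV6-RUNX1 minus control virus (horizontal axis), for every compared gene of 8 lists in wild type (orange) and Btg1-/- cells (purple), with black bars at the median of a list and dashed lines at 2-fold in either direction. The members and the mast cell markers lie to the right of 0 in both genotypes, and the medians of the other lists lie between 0.13 and 0.52.

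Receptors and other markers of mast cells moved with the granule genes. Kit was not found by symbol or synonym in the authors' array table. Of 17 marker genes found there, 9 reached the floor. All 9 were at least 2-fold higher with ETV6-RUNX1 in wild type (median 1.64), where 1.88% of all genes were. In Btg1-/- cells all 9 were above 0 (median 0.71), where 51.3% of all genes were. Of these, 1 was at least 2-fold higher, where 1.69% of all genes were. That 1 was Hpgds, at a lower bound of 1.00 (spread 0.54). Hpgds was under the floor in both controls, at 5.36 and 5.91, so its sign was fixed in both comparisons. For loss of Btg1 under control virus, 8 of 8 markers compared were above 0 (median 0.94), where 49.6% of all genes were. Of these, 3 were at least 2-fold higher, where 0.361% of all genes were. Between the fusion cultures, 2 of 9 were above 0 for loss of Btg1 (median -0.24), where 50.4% of all genes were. Adora3, an adenosine receptor that enhances degranulation, stood at 6.71, 9.22, 8.21 and 8.92. Fcer1a, the IgE-binding chain of the IgE receptor, stood at 9.08, 10.28, 10.33 and 10.77, with the Btg1-/- control above wild type with ETV6-RUNX1. The log2 differences in wild type and in Btg1-/- cells were 2.15 and 0.87 for Cd200r3, an activating receptor of mast cells and basophils, and 2.09 and 0.87 for the receptor's beta chain gene Ms4a2. They were 1.75 and 0.68 for its gamma chain gene Fcer1g. The transcription factor gene Gata2 was 2.84-fold and 1.82-fold higher. The log2 of the summed linear levels of the 17 markers was 12.05 in the wild-type control, 13.63 in wild-type cells with ETV6-RUNX1, 12.97 in the Btg1-/- control and 13.67 in Btg1-/- with ETV6-RUNX1. For the 10 members this sum was 15.03, 16.26, 15.53 and 16.23, in the same order of arrays except for the 2 fusion arrays. The part of these cells' number in the result was not tested.

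Among transcription factor genes that act in mast cells, 9 of 15 on the array were compared. Their medians were 0.14 in wild type and 0.52 in Btg1-/- cells. Above 0 were 6 of 9 and 8 of 9, where 45.4% and 51.3% of all genes were. In Btg1-/- cells 0 were at least 2-fold higher, where 1.69% of all genes were. In wild type 2 were at least 2-fold higher, where 1.88% of all genes were. The 2 were Gata2, described above, and Tal1, a partner of GATA factors, which was at least 3.40-fold higher in wild type and differed by 0.93 (spread 0.44) in Btg1-/- cells. Lmo2, which bridges Tal1 and GATA factors, differed by 0.27 and 0.99, and Bhlhe40 by 0.23 and 0.47. Mitf and Gata1 were under the floor on all arrays.

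The genes outside the set whose pattern was most like that of the members were Lgals3, Unc13b, Snx24, Niban2 (FAM129B in the table) and Gata2. Likeness was the Euclidean distance over the 4 arrays between centred levels and the median of the 6 measured members not near the ceiling, among 6312 genes. Levels under the floor entered as deposited here, among them those of Ctsg, Slc18a2, Unc13b and Snx24 in the wild-type control. Distances ran from 0.130 for Lgals3 to 0.172 for Gata2. Lgals3, which encodes galectin-3, stood at 9.41, 10.81, 9.99 and 10.80. With 4 arrays many genes can share such a pattern, and nothing beyond it was measured.

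Markers of other cell types that can hold these products were examined, since members such as Ctsg, Srgn and Slc18a2 are not restricted to mast cells. Of 10 basophil markers, 3 reached the floor on any array (Cd200r3, which mast cells share, Il3ra and Il4), and the basophil protease gene Prss34 was under it on all arrays, as was Mcpt8. All basophil markers compared were above 0 with the fusion, 3 of 3 in wild type and 2 of 2 in Btg1-/- cells. Of all genes compared, 45.4% and 51.3% were. Il4 reached the floor only in wild type with ETV6-RUNX1, at 6.09, so its sign was fixed. Its lower bound of 0.09 lay within its spread of 0.21. Il3ra, a chain of the interleukin 3 receptor, differed by 0.49 (spread 0.31) and 0.88 (spread 0.44). The summed level of the list was 8.33, 9.64, 8.77 and 9.51, higher on both fusion arrays than on both controls. This sum includes Cd200r3, the gene of highest mean level in the list, which the mast cell list also holds. Cd200r3 stood at 6.66, 8.82, 7.56 and 8.43. Of 15 neutrophil granule markers, 2 reached the floor. S100a8 stood at 7.05, 7.96, 7.78 and 7.95, S100a9 at 4.79, 6.70, 6.30 and 6.88, and the azurophil granule genes Elane (ELA2 in the table), Prtn3 and Mpo were under the floor on all 4 arrays. The summed level of this list was 8.22, 8.98, 8.72 and 9.03. Ctsg lay in this order of arrays, as did the summed mast cell markers, Cma1 and Tpsb2. Of 9 eosinophil markers, 2 reached the floor, with Prg3 at least 2.40-fold higher in wild type and at least 2.75-fold higher in Btg1-/- cells with the fusion, while Epx and Prg2 stayed under it (summed levels 7.24, 8.17, 6.88 and 8.21). Of 12 megakaryocyte and platelet markers, whose cells also store amines and serglycin, 4 reached it, and their summed level was 8.78, 9.75, 8.53 and 9.82. Itga2b, the platelet integrin chain, was at least 3.19-fold higher in wild type and 2.94-fold higher in Btg1-/- cells, Nfe2 differed by 1.08 and 1.33, Vwf was at least 2.20-fold and 1.84-fold higher, and Pf4 and Ppbp were under the floor on all arrays. In Srgn and in the sum of this list the Btg1-/- control lay at or below the wild-type control. The same held for the summed eosinophil and B-cell progenitor markers. Within this list Itga2b went the other way, from 5.87, under the floor, in the wild-type control to 6.17 in the Btg1-/- control. The part of these cell types, basophils included, in the levels of the members was not tested.

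Cytotoxic lymphocyte markers reached the floor in 2 of 7 genes, with summed levels of 6.83, 7.31, 6.93 and 7.51 and Prf1 between 6.05 and 6.18. Erythroid markers did so in 2 of 10, with sums of 11.60, 11.62, 11.74 and 11.16 that came mainly from the transferrin receptor gene Tfrc. B-cell progenitor markers reached it in 11 of 12 genes, and their summed level was 15.36 in the wild-type control, 15.29 in wild-type cells with ETV6-RUNX1, 15.30 in the Btg1-/- control and 15.65 in Btg1-/- with ETV6-RUNX1. Their median difference with ETV6-RUNX1 was -0.04 in wild type and 0.42 in Btg1-/- cells, where Rag1 differed by 1.47 and Dntt was at least 2.07-fold higher. In wild type 4 of 10 were above 0 with the fusion, where 45.4% of all genes were. For loss of Btg1 under control virus 2 of 9 were above 0 (median -0.15), where 49.6% of all genes were. Of the 3 genes of highest mean level, Vpreb1 and Vpreb3, of the pre-B cell receptor, and Cd79b, of the B cell receptor, differed with the fusion in wild type by 0.02, -0.22 and -0.05.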

How the data were processed

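Gene expression was measured on Illumina MouseRef-8 arrays in 4 cultures, 1 array per group. The authors deposited log2 levels made by RMA in ArrayStar, per the file headers. RMA brings the arrays to nearly 1 distribution, so a shift of all genes is removed, and the way probes of 1 gene were merged is not stated. Array precision is limited by the number of arrays. For 5 comparisons the authors deposited a fold ratio too, per the file headers, and its log2 matched the subtracted levels within 1.00e-05. In the table of raw signals, 8 value columns carry names that cannot be tied to a label, and they were not used here.

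The members and gene lists were chosen with earlier results of these data known, and so was the floor of 6. For comparisons, values under the floor were raised to it, and a gene was compared if at least 1 of its 2 arrays reached it. A fold with 1 array under the floor is a lower bound. Summed list levels and the distances of like pattern used the deposited values without a floor. A gene was called at 2-fold. The spread is 1.4826 times the median absolute deviation among 250 neighbours in level on either side. A model of additive genotype and virus effects would leave 1 residual degree of freedom and was not fitted. All 10 members are named. From each other list the genes named are up to 4 past 2-fold with ETV6-RUNX1 and the 3 of highest mean level. Also named are 5 genes of like pattern, the defining markers of other cell types and the genes of the chromosome 14 cluster. Mitf, Gata1, Il4 and Hpgds were chosen after their values were seen. Some that the rule selects are given only in the counts. Of the gene names, 14304 matched a RefSeq symbol and 2888 a synonym (GRCm38.p6). Alternatives were floors of 5 and 7, no floor, an equal 75th percentile, all 4 arrays at or above the floor, a 1.5-fold threshold and a ceiling by rank, and, chosen after seeing the data, a size of at least 3 spreads. The calculation was tested on simulated data. Python 3.11.15, numpy 2.4.6, pandas 2.3.3 and matplotlib 3.10.9 were used.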

Additional observations from a re-analysis of the deposited data

Results flagged for a closer look

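Among the genes picked by the naming rule, some had effects of opposite sign in the 2 backgrounds, each larger than its level-matched spread. With 1 array per group the difference was not tested. None of the 10 granule and amine genes was among them. Outside that rule, B3galt6, Csgalnact1, Alox5 and Blnk met the same criterion and are not described further. Loss of Btg1 went with 0.90 under control virus and -0.39 with ETV6-RUNX1 for Cd200r3, with 0.13 and -0.80 for Odc1, with 0.17 and -0.47 for Tfrc, with -0.28 and 0.44 for Lmo2, and with -0.11 and 0.36 for Cd79b. For Rag1 it went with -1.18 and 0.46, and ETV6-RUNX1 with -0.16 in wild type and 1.47 in Btg1-/- cells. For Vpreb3, loss of Btg1 went with -0.19 and 0.56, and ETV6-RUNX1 with -0.22 in wild type and 0.53 in Btg1-/- cells.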

How the results depend on the processing

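The medians of the members kept their direction in all comparisons under every alternative run, except for loss of Btg1 with ETV6-RUNX1, where the median of -0.04 lay within the spread and became 0.01 without members near the ceiling. Of 177 single-member values under alternatives, 162 moved by less than the spread, 15 moved by more, all of Ctsg and Slc18a2 and all with another floor or none, and 0 of the members past 2-fold changed sign. With a floor of 7 the lower bound of Slc18a2 in wild type was a log2 difference of 1.28, and with no floor its difference was 2.74. With ETV6-RUNX1 in Btg1-/- cells, 3 members were past 2-fold. There was 1 with a floor of 7 and 1 where all 4 arrays had to reach the floor, which leaves Ctsg and Slc18a2 out, and 7 were past 1.5-fold. For loss of Btg1 under control virus the count of 1 became 3 at 1.5-fold. No other count of members moved by more than 1.5 times. The counts of all genes past 2-fold were 137, 250, 41, 97 and 271 in the order ETV6-RUNX1 in wild type, ETV6-RUNX1 in Btg1-/- cells, loss of Btg1 with control virus, loss of Btg1 with ETV6-RUNX1, and both lesions against neither. They became 241, 379, 100, 174 and 431 with a floor of 5, 75, 152, 19, 50 and 166 with a floor of 7, 1574, 1690, 1468, 1404 and 1824 with no floor over all 18113 genes, and 457, 997, 249, 611 and 967 at 1.5-fold. With the added requirement of 3 times the spread they were 115, 121, 37, 53 and 164. The equal 75th percentile shifted all genes by at most 0.02 on the log2 scale in any comparison. A fit with genotype as a block, pairing the fusion and control arrays of each genotype, would leave 1 residual degree of freedom and was not run. With 1 array per group, no array could be left out. Levels near the floor limit Ctsg and Slc18a2, and levels near the ceiling limit Cpa3, Cma1 and Mcpt4.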
